A study of Mus musculus with 6 samples.

Results

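The genes described here encode components and regulators of complement, the serum protein cascade that tags and lyses microbes and clears debris: the C1q chains C1qa, C1qb and C1qc, the central component C3, factor B (Cfb), properdin (Cfp) and the C1 inhibitor (Serping1). They were named by symbol, by a rule that used no measured difference, although earlier results of these data were known. Each was represented by the probe set annotated to that symbol alone. Of the 7 genes, 6 had such a probe set, 1 each, out of 22180 genes tested, and C3 was not analysed here. Expression was measured with whole-transcript arrays in Raw 264.7 cells, a mouse line described by the labels as monocytes and widely used as a macrophage model. Cells had been grown in DMEM with 10% FBS, were starved, and were then kept in DMEM with 2% FBS. Treated cells received IL-33, an alarmin related to IL-1, at 50 ng/ml, and control cells received PBS, with 3 arrays in each group and no treatment time given in the sources used here. All cells are of a single established line, and the labels do not say whether arrays of a group stand for separate cultures. The p-values therefore reflect spread between arrays that may be technical only.

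Complement can be started in 3 ways. In the classical pathway C1q, a hexamer built of A, B and C chains, binds antibody or surfaces and activates the protease C1r. C1r in turn activates the protease C1s, which cleaves C4 and C2. In the lectin pathway sugar-binding lectins and MASP proteases do the same. In the alternative pathway factor B pairs with C3b to form a C3 convertase that properdin stabilises. Serping1 inactivates C1r, C1s and the MASPs. Macrophages are a main source of C1q and make factor B and properdin locally. Cfb and Serping1 are known as interferon-inducible genes in other macrophage settings.

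Directions below follow the sample titles. In the sample descriptions, however, arrays titled IL-33 bear a name with the letter P and arrays titled PBS a name with the letters IL, so all signs would be opposite if the titles had been swapped. Array medians lay between 5.31 and 5.36 on the log2 scale, the highest value of an array between 13.62 and 13.66, and arrays correlated across genes at r = 0.9967 to 0.9980. The 10 measured macrophage markers, among them Cd68, Csf1r and Lyz2, had mean log2 values from 9.56 to 12.88. Markers of fibroblasts (8 measured), hepatocytes (7), lymphocytes (7) and mast cells (6) had mean values from 2.76 to 6.31, and none of them passed the test below. The file has no detection calls. Probes differ in affinity, so a level set against the levels of other genes, here and below, is a rough guide only. The RNA came from whole cultures, so a change in each cell and a change in the share of cells that express a gene cannot be told apart.

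None of the 6 measured members passed an adjusted p of 0.05 in the comparison of IL-33 with PBS (limma, Benjamini-Hochberg over all 22180 genes), against 0.591% of all genes, 131 in number. At an unadjusted p under 0.05, 1 member was higher, Cfb, where 13.2% of all genes passed in either direction. Cfb had the largest difference of the 6 and an adjusted p of 0.050009, just outside the threshold. The other 5 had log2 differences between -0.10 and 0.21, and the median over the 6 was 0.10, against -0.0051 over all genes. The groups did not overlap for 2 of the 6, Cfb and Cfp, both with higher values in IL-33 arrays, where 20.3% of all genes did not overlap and 10.3% did so with higher values. The values came from a fit of all genes together, and the exact permutation test of 3 arrays against 3 cannot go below a two-sided p of 0.1.

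**Figure D1:**
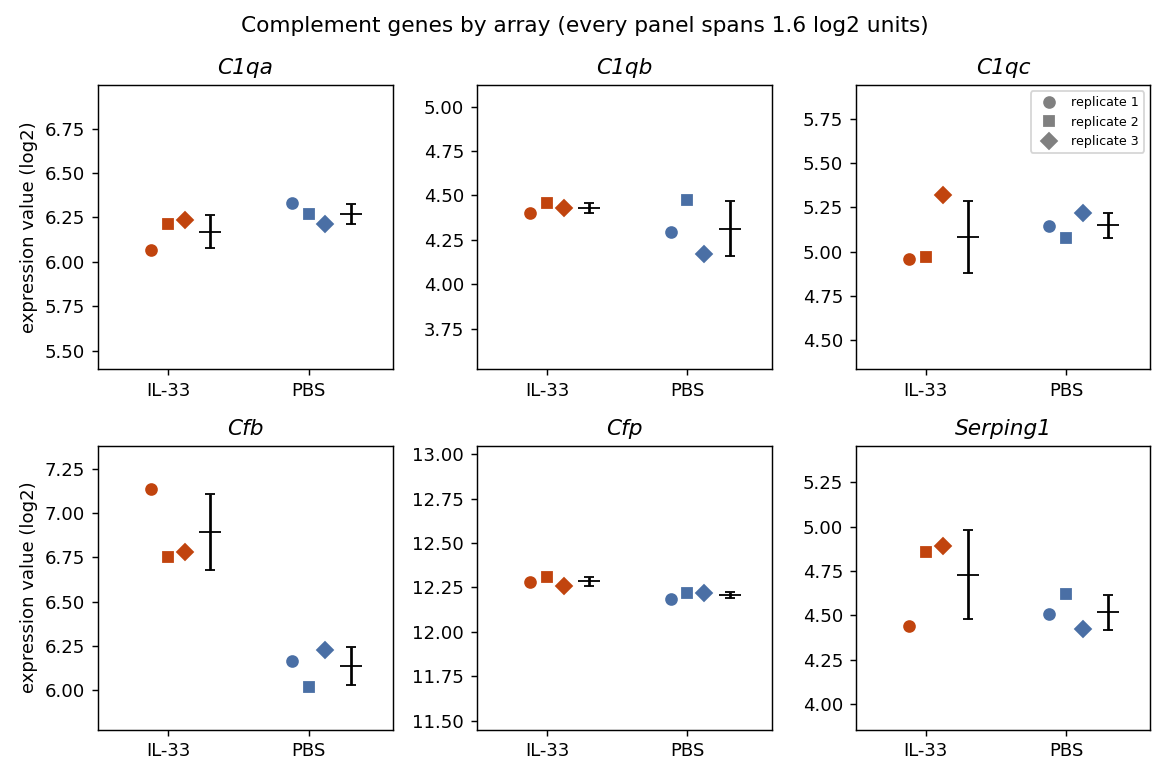
Log2 expression values of the 6 measured members, 1 panel per gene, with IL-33 arrays (orange) left of PBS arrays (blue), symbols for replicate numbers, and the mean with SD (n = 3) as a black bar. Cfb is the gene with clearly separated groups (6.75 to 7.14 in IL-33 arrays, 6.02 to 6.23 in PBS arrays), the Cfp groups lie apart by a small step, and the others overlap.

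Factor B is the serine protease that carries the catalytic site of the alternative pathway convertase. The probe set of Cfb (Entrez gene 14962) read 7.14, 6.75 and 6.78 (log2) in IL-33 replicates 1, 2 and 3, against 6.16, 6.02 and 6.23 in PBS replicates 1, 2 and 3. The lowest IL-33 array lay above the highest PBS array, and IL-33 replicate 1 stood above the other IL-33 arrays. Means were 6.89 ± 0.21 in IL-33 arrays and 6.14 ± 0.11 in PBS arrays (SD, n = 3 each). The PBS mean lay below 6.31, the highest mean among the markers of other cell types, and how far it lay above background was not tested. The log2 difference of 0.75 ± 0.11 (SE), with a 95% interval from 0.48 to 1.02, equals a 1.69-fold higher level with IL-33. Its unadjusted limma p of 0.00030 ranked 133 among 22180 genes, and its adjusted p of 0.050009 (limma) missed the threshold. Of 15 alternative settings 8 put Cfb past it, with adjusted p between 0.001855 and 0.1947 over all 15, and every setting gave a positive difference. Without IL-33 replicate 1, the array with the highest Cfb value, the log2 difference was 0.63 and the adjusted p 0.0482 (limma). Leaving out any of the other 5 arrays gave adjusted p of 0.1306 to 0.1947 (limma).

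Properdin is the plasma protein that stabilises the alternative pathway convertase and is secreted by myeloid cells. The probe set of Cfp (Entrez gene 18636) read 12.28, 12.31 and 12.26 (log2) in IL-33 arrays, against 12.19, 12.22 and 12.22 in PBS arrays. The groups did not overlap, but the step between them was small, and whether values this high on the arrays' scale limit the measured step was not tested. The log2 difference was 0.08 ± 0.05 (SE), with a 95% interval from -0.03 to 0.19 and an adjusted p of 0.542 (limma). A change in Cfp of the size seen for Cfb, 0.75, lay outside that interval.

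C1q chains are encoded by neighbouring genes on chromosome 4, in the order C1qb, C1qc, C1qa with 0 other protein-coding genes between them in the RefSeq table of GRCm38.p6. The A chain gene C1qa (Entrez gene 12259) read 6.06, 6.21 and 6.23 (log2) in IL-33 arrays, against 6.33, 6.27 and 6.22 in PBS arrays. The B chain gene C1qb (Entrez gene 12260) read 4.40, 4.46 and 4.43 in IL-33 arrays, against 4.30, 4.48 and 4.17 in PBS arrays. The C chain gene C1qc (Entrez gene 12262) read 4.96, 4.97 and 5.32 in IL-33 arrays, against 5.15, 5.08 and 5.22 in PBS arrays. The groups overlapped for each of the 3 chains. Log2 differences were -0.10 ± 0.07 for C1qa, 0.12 ± 0.08 for C1qb and -0.06 ± 0.10 for C1qc (SE). Their 95% intervals ran from -0.25 to 0.05, from -0.08 to 0.31 and from -0.31 to 0.18, and adjusted p values were 0.577, 0.624 and 0.846 (limma). A difference of the size of that in Cfb lay outside all 3 intervals. However, the C1qb and C1qc values lay below the median gene mean of 5.75. The C1qa means, 6.17 in IL-33 and 6.27 in PBS arrays, lay below 6.31, the highest mean among the markers of other cell types. Without detection calls, whether the probe sets of the 3 chains can register such a change was not tested. The 3 chain genes differed in sign, and their probe sets were only loosely related over the 6 arrays. Pearson r was 0.47 between C1qa and C1qc, -0.12 between C1qa and C1qb and -0.38 between C1qb and C1qc, given as a description of 6 arrays that share 1 normalization. For deviations from the group means the same pairs gave 0.41, 0.32 and -0.31, so the sign for C1qa and C1qb depended on the measure.

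The mean of the 3 C1q probe sets lay between 5.14 and 5.33 in IL-33 arrays and between 5.20 and 5.28 in PBS arrays. Among 10458 other genes with an official symbol and a mean at or above the median gene, those most like this mean over the 6 arrays were the centrosomal protein gene Cep57, the histone gene H2az1 and the checkpoint adaptor gene Clspn, each with Pearson r = 0.97. Among those 10458 genes 39 had r above 0.9, and since the C1q mean hardly differed between arrays this is a description only.

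Promoter sequences from RefSeq (GRCm38.p6, 250 bases before to 50 after the gene's start) were matched for C1qb, C1qc, C3 and Cfp. No entry was available for C1qa, Cfb or Serping1, so their promoters were not searched. The promoters of C1qb and C1qc are shown because these neighbours encode chains of 1 molecule and did not pass the test, and that of Cfp because it is the other measured member with an entry. Capitals mark matches to a loose NF-kB pattern, GGG and CC with any 5 bases between, on either strand. They run in the direction of transcription, at chr4:136886151-136886450 (minus strand) for C1qb, chr4:136892865-136893164 (minus strand) for C1qc and chrX:20931506-20931805 (minus strand) for Cfp.
C1qb: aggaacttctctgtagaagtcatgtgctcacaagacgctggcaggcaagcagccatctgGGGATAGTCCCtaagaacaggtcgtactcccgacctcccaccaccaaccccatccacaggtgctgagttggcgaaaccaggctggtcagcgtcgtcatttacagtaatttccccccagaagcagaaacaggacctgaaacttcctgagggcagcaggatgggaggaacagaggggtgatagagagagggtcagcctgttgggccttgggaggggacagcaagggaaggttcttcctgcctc
C1qc: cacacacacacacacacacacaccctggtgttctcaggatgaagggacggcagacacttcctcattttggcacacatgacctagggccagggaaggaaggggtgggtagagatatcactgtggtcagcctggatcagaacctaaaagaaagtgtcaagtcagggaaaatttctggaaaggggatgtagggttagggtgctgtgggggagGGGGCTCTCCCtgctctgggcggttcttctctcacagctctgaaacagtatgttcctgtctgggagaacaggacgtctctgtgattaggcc
Cfp: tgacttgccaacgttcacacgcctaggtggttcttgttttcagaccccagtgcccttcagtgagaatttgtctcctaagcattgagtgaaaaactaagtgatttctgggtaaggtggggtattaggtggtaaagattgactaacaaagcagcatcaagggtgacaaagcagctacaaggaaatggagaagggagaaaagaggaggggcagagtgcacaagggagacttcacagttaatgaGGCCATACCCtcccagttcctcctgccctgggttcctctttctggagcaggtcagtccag

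Each of these promoters held the NF-kB pattern, with overlapping matches on both strands in C1qb and C1qc, and 50.8% of 32851 promoters of the same length held it. The C3 promoter, not shown because C3 was not analysed here, held 5 matches to it, overlaps and both strands counted. None of the 3 held the interferon-gamma pattern TTC and GAA with any 3 bases between, or the interferon pattern of 2 GAAA runs with any 2 bases between. Both were searched on both strands, and 8.3% and 3.44% of all promoters held them. The C3 promoter held neither. The promoters of 2 other complement genes, C1ra and Itgax, were added to the search after their values were seen. C1ra held 1 match to the interferon-gamma pattern and none to the others, and Itgax held none of the 3 patterns. A match describes letters in this window and not a bound site.

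Serping1 encodes the C1 inhibitor, the main soluble brake on the classical and lectin proteases. Its probe set (Entrez gene 12258) read 4.44, 4.86 and 4.89 (log2) in IL-33 arrays, against 4.51, 4.62 and 4.42 in PBS arrays. All of these values lay below the median gene mean of 5.75, and whether a probe set at this level can register a change was not tested. IL-33 replicates 2 and 3 lay above all PBS arrays, while IL-33 replicate 1 lay within the PBS range. Of the IL-33 arrays, replicate 1 also had the lowest C1qa, C1qb and C1qc values and the highest Cfb value. The log2 difference of Serping1 was 0.21 ± 0.13 (SE), with a 95% interval from -0.08 to 0.51 and an adjusted p of 0.532 (limma). Without IL-33 replicate 1 it was 0.36 with an adjusted p of 0.1492 (limma), and over the 6 fits that left out 1 array it ranged from 0.13 to 0.36 and never passed.

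The rest of the cascade was read from lists of pathway, regulator and receptor genes, of which 50 of 55 genes were measured, the members included. None of the 50 passed over all genes (limma), with 2 higher and 1 lower at an unadjusted p under 0.05, where 13.2% of all genes passed. Those 3 were Cfb, the classical pathway protease gene C1ra and the complement receptor gene Itgax. The median log2 difference of the 50 was 0.03, with 28 above 0 and 22 below, where 10629 of 22180 genes lay above 0. Many of the 50 were dim. Only 17 lay at or above the median gene mean. Their median level in IL-33 arrays, over all 50, was 5.02, against 5.74 over all genes. How far dim probe sets can register a change was not tested. Groups did not overlap for 7 of the 50, against 20.3% of all genes. Of these, 5 were higher, against 10.3% of all genes, and 2 lower, against 10.1%. The 5 were Cfb, Cfp, C1ra, the rodent membrane regulator Cr1l and the integrin alpha M gene Itgam, and the 2 were Itgax and Cd59a, with Cr1l and Itgam named after their values were seen.

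**Figure D2:**
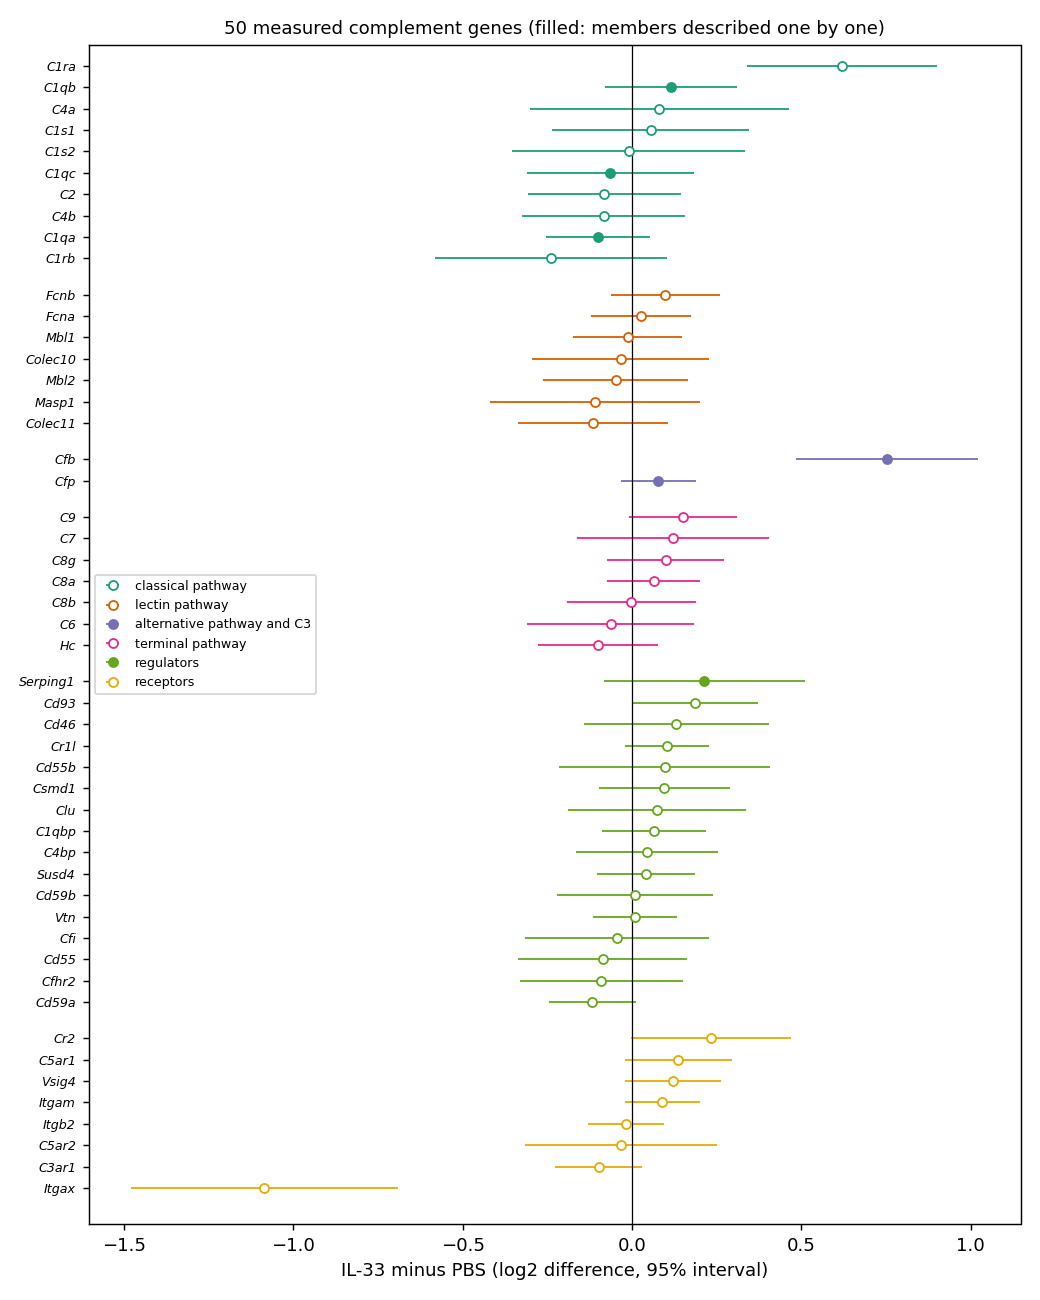
IL-33 minus PBS log2 differences (horizontal axis) with 95% intervals for the 50 measured complement genes, grouped by role, with filled points for the 6 members. Cfb and C1ra lie furthest right (0.75 and 0.62), Itgax lies furthest left (-1.09), and the intervals of the other 47 genes include 0.

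Of the 10 classical pathway genes measured none passed, with a median log2 difference of -0.04. C1ra, which encodes a form of the protease C1r, read 6.44, 6.38 and 6.68 (log2) in IL-33 arrays, against 5.77, 6.10 and 5.77 in PBS arrays. All IL-33 arrays lay above all PBS arrays. The PBS mean of 5.88 lay below 6.31, the highest mean among the markers of other cell types. The log2 difference was 0.62 ± 0.12 (SE), 1.54-fold, with an adjusted p of 0.0901 (limma), and 2 of 15 alternative settings put it past the threshold. These were the filter at the median gene mean and the trended and robust prior variance. They passed 760 of 11090 and 1000 of 22180 genes, against 131 of 22180 in the main fit. C1rb, a near-identical copy, had a difference of -0.24 ± 0.15 (SE) and an adjusted p of 0.543 (limma), and how far the probes of such copies, or of C4a and C4b, tell them apart was not tested. The difference was 0.06 ± 0.12 (SE) for C1s1, the partner protease, and -0.08 ± 0.10 (SE) for C2, the classical counterpart of factor B, both chosen after their values were seen.

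Lectin pathway genes gave no member that passed among 7 measured, with a median log2 difference of -0.03. The ficolin gene Fcnb, a sugar-binding starter, had a difference of 0.10, and the collectin gene Colec11 of -0.12, with adjusted p of 0.613 and 0.674 (limma). Among 7 terminal pathway genes, whose products form the membrane attack complex, none passed and the median was 0.06. C9, the pore-forming subunit, had a difference of 0.15, and C8g of 0.10, with adjusted p of 0.406 and 0.636 (limma).

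Of 16 regulators measured none passed, and the median log2 difference was 0.05. Of the 16, 12 lay above 0, where 10629 of 22180 genes did, and no test over the list was made. Cd93, a membrane protein once described as a C1q receptor, differed by 0.19 ± 0.08 (SE) with an adjusted p of 0.382 (limma). Cd59a, which blocks the membrane attack complex on the cell's own surface, differed by -0.12 ± 0.05 (SE) with an adjusted p of 0.414 (limma). Of the 8 receptors measured none passed, and the median was 0.04.

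Itgax encodes integrin alpha X (CD11c), which with the beta chain Itgb2 forms complement receptor CR4. It read 6.48, 5.75 and 6.11 (log2) in IL-33 arrays, against 7.24, 7.21 and 7.15 in PBS arrays. Every IL-33 array lay below every PBS array, and the IL-33 arrays were more spread, with an SD of 0.36 against 0.04. The IL-33 mean of 6.11 lay below 6.31, the highest mean among the markers of other cell types. The log2 difference was -1.09 ± 0.17 (SE), with a 95% interval from -1.48 to -0.69 and an adjusted p of 0.0518 (limma), and 7 of 15 alternative settings put it past the threshold. Without IL-33 replicate 1 the difference was -1.27 with an adjusted p of 0.0218 (limma). Leaving out any of the other 5 arrays gave adjusted p of 0.0889 to 0.2127 (limma), and the replicate block gave 0.1242. The alpha chain of the related receptor CR3, Itgam, differed by 0.09 ± 0.05 and the shared chain Itgb2 by -0.02 ± 0.05 (log2, SE). Cr2, the receptor for C3 fragments on B cells, had a log2 difference of 0.23 ± 0.10 (SE), not past the threshold (adjusted p = 0.388, limma).

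**Figure D3:**
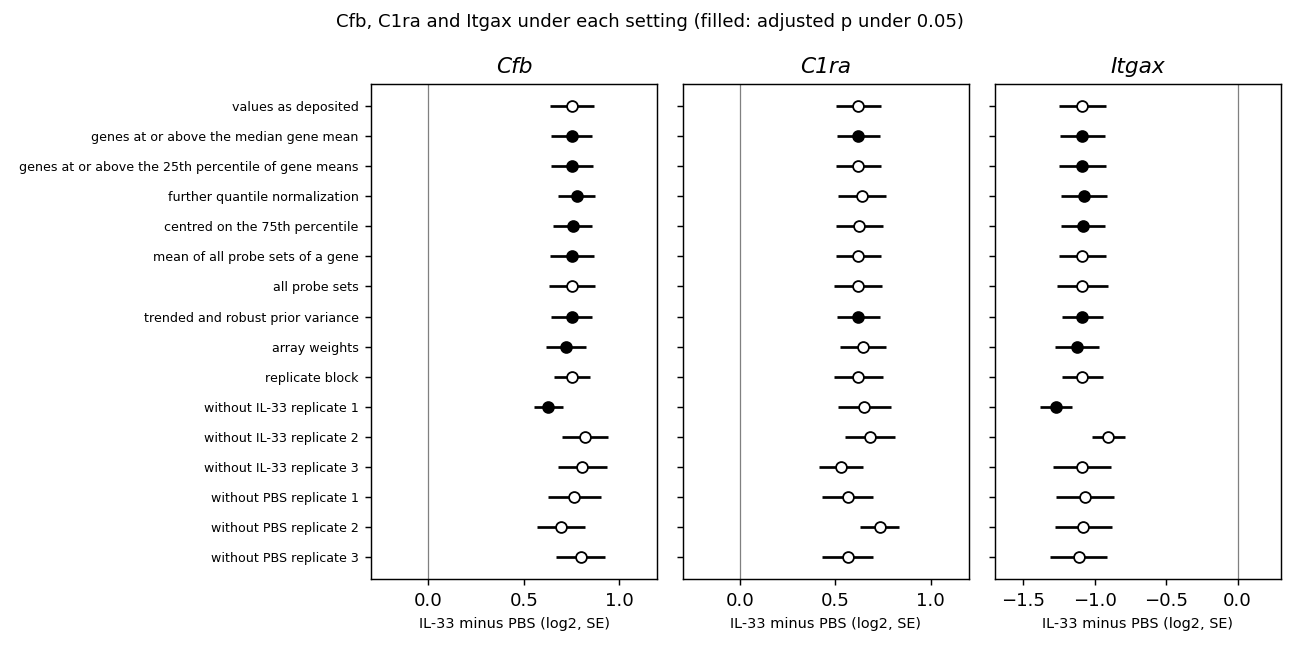
IL-33 minus PBS log2 differences (SE bars) of Cfb, C1ra and Itgax for the deposited values and 15 alternative settings, with filled points where the adjusted p was under 0.05. Each gene keeps its direction in all settings, and Cfb, Itgax and C1ra are filled in 8, 7 and 2 of the 15 alternatives.

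Interferon-induced genes were listed beside the complement genes because Cfb and Serping1 are known interferon targets. Of 26 measured, 10 rose, against 0.275% of all genes, none fell, against 0.316%, and the other 16 did not pass. All 26 differences were above 0 and their median was 0.31 (log2). The list was chosen with earlier results of these data known, so these counts are a description only. Mx1, an antiviral GTPase, read 6.13, 6.30 and 6.21 (log2) in IL-33 arrays, against 4.50, 4.84 and 4.85 in PBS arrays. Its rise was 2.80-fold (adjusted p = 0.0041, limma). Ifit2, an RNA-binding antiviral protein, rose 1.54-fold (adjusted p = 0.0113, limma). The call was lost without IL-33 replicates 2 or 3 (adjusted p of 0.0637 and 0.0699, limma) and without PBS replicates 1 or 3 (0.0584 and 0.0582). It was also lost with the replicate block (0.0801) and over all probe sets (0.0673), while the log2 difference of Ifit2 lay between 0.59 and 0.65 in all fits. The high-affinity IgG receptor Fcgr1 was the single macrophage marker of the 10 to pass, 0.49 higher on the log2 scale at an adjusted p of 0.0448 (limma). The 10 markers moved both ways, 5 above 0 and 5 below, and Adgre1, which encodes the macrophage marker F4/80, had a log2 difference of -0.29 with groups that did not overlap and an adjusted p of 0.114 (limma). Both were singled out once their values were known. Whether these genes share a cause with the Cfb difference was not tested.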

How the data were processed

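The authors deposited log2 values of 41345 probe sets for each array, computed by RMA per the submitters' processing notes; version, settings and build: not given in the sources used here. Because RMA equalises the arrays' distributions, a shift common to most genes is removed. Of the probe sets 23521 carried exactly 1 symbol, and each gene was represented by the one with the highest mean over the 6 arrays. No symbol changed when checked through Entrez IDs against the RefSeq table. Groups came from the sample titles.

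The deposited values entered limma 3.58.1 (R 4.3.3; lmFit and eBayes) without covariates or a filter, with Benjamini-Hochberg adjustment, a threshold of 0.05 and 95% intervals. The script was tested on simulated data. Figures used matplotlib 3.10.9. Arrays give no count depth, so their number limits the precision, and the median SE of a log2 difference was 0.073.

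The members, lists and tests were chosen with earlier results of these data known. Named were all members, and of each complement list those that passed or else up to 2 with the smallest p, and up to 2 interferon-induced genes. A search for genes like C3, and promoters of members that passed, were planned and gave nothing to report. Alternatives were filters, scalings, probe set rules, variance models, a replicate block and leaving out each array.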

Additional observations from a re-analysis of the deposited data

How the results depend on the processing

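At the deposited scale 131 genes, no member and none of the 50 complement genes passed. The counts over all genes were 760 among genes at or above the median gene mean, 296 above the 25th percentile, 1000 with a trended and robust prior variance and 17 over all 41345 probe sets, in which control probe sets stayed because the files used here do not mark them. Exactly 1 member, Cfb, passed with both filters, both scalings (a further quantile normalization, or centring at the 75th percentile), averaged probe sets, array weights and the trended and robust prior. The median and milder filters left 3 and 5 of the members to test. Of the broader list, the median filter left 17 genes, of which 3 passed, against 760 of 11090 genes. The milder filter left 33, of which 2 passed, against 296 of 16635 genes. Of all 50, 3 passed with the trended prior, against 1000 of 22180 genes. Quantile normalization, centring and array weights each gave 2 of the 50, against 139, 143 and 193 of 22180 genes. The mean of all probe sets gave 1 of the 50, against 127 of 22180 genes. Leaving out 1 array gave 15 to 83 genes, 0 to 1 member and 0 to 2 complement genes, the highest each time without IL-33 replicate 1. The scalings moved the median difference of all genes by at most 0.011. All measured members kept their direction in every alternative that tested them; dim genes had fewer because filters removed them. Both groups carry replicate numbers 1 to 3. Deviations from group means correlated at r = 0.082, 0.088 and 0.022 between same-numbered arrays, and from -0.125 to 0.059 between differently numbered arrays. The numbers are not stated to be pairs, so arrays were not paired in the main fit. With the replicate block 21 genes, 0 members and 0 complement genes passed, and Cfb had an adjusted p of 0.1197 (limma).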
